A study of Mus musculus with 12 samples.

Results

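RNA of 47 genes for DNA replication and S phase was followed in the mouse embryonic stem cell line CCE after depletion of the long intergenic noncoding RNA TUNA. The 47 were chosen by symbol from the 37477 rows of the deposited expression table and sorted by role: 12 for origin licensing, 8 for origin firing, 19 for polymerases, clamp and fork proteins, 4 for nucleotide supply, and 4 for control of S phase and chromatin assembly. All groups shared the culture in serum medium with LIF, transduction with pLKO.1-puro lentivirus for expression of a short hairpin (shRNA), and puromycin, so each library is a bulk, drug-selected population. The control group carried a control shRNA and was collected at day 2. The other groups carried an shRNA against TUNA and were collected at day 2, day 4 and day 6. Each of the 4 groups had 3 libraries, 12 in all, and each library was total RNA extracted with Trizol. A control of days 4 and 6 was not analysed here. The day 2 comparison alone was matched in time, and at the later days time in culture and the hairpin cannot be told apart. The labels do not say whether replicates came from separate cultures, or how many hairpin sequences were used, so p-values speak of the spread among these libraries only, and that spread may be technical.

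As background, DNA is copied once per cell cycle because origins are prepared and fired in separate steps. In G1 the origin recognition complex, CDC6 and CDT1 load the ring of MCM subunits onto DNA, which is called licensing. In S phase the kinase CDC7 with DBF4 fires licensed origins by helping CDC45 and the GINS complex join the ring, the polymerases and the PCNA clamp then copy the strands, and ribonucleotide reductase and thymidylate synthase supply nucleotides. Many of these genes are transcribed under E2F factors around the start of S phase. Mouse embryonic stem cells have a short G1 and spend much of their cycle in S phase.

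Values are normalized counts made by the authors and deposited as log2. The worth of 1 read, recovered from the steps between values, put 3522188 to 5652547 reads in each library, most of them in 3 rows (Rnu3a, Tex14 and LOC100503663). Those rows held 73.96% to 75.52% of reads in the controls and 72.68% to 74.48% at day 2. They held 64.18% in day 4 replicate 1, 72.85% and 76.9% in the other day 4 libraries, and 60.4% to 69.31% at day 6, below every control. The part of this shift in the day 6 results was not tested. The 47 genes together held 3173 to 6080 reads per library, and Mcm4, for example, rested on 39.0 to 133 reads. All 10 stem cell markers were in the table, and their summed level was 3050 to 3260 in the controls. It was 2770 to 2940 at day 2, 2670 to 2820 by day 4, and 1890 to 2320 by day 6. The lower sum at day 2 lay mostly in Nanog, with a mean of 303 against 482 in the control. At day 4 it lay mostly in Pou5f1, with 496 against 737, and Zfp42, with 314 against 526. Nanog, Esrrb, Fgf4 and Utf1 were also lower at day 4. Sox2, Tdgf1, Dppa5a and Klf4 were higher there, at 617, 367, 178 and 28.7 against 551, 293, 128 and 23.5. Of 8 fibroblast markers 5 were at 0 in every library, Col1a1, Col1a2, Col3a1, Dcn and Lum, and the list summed to 8.63 to 18.7 in the controls. At day 2 that sum was 8.55 to 11.2, at day 4 it was 18.3 to 27.3, and at day 6 it was 4.52 to 13.3. The higher sum at day 4 lay in Pdgfra, with a mean of 16.6 against 6.04 in the control. Thy1 had 0.651 against 1.86 and Pdgfrb 4.75 against 5.2. Of 6 endoderm markers 3 were at 0, Afp, Ttr and Apoa1, and the list summed to 11.7 to 17.1 at day 4 against 1.5 to 8.63 in the other groups. The 5 neural markers summed to 21.5 to 37.0 in the controls. They summed to 17.1 to 28.1 at day 2, 29.2 to 37.7 by day 4, and 46.5 to 56.1 by day 6. The higher sum at day 6 lay mostly in Nes, with a mean of 28.4 against 4.64 in the control. Tubb3 was lower, at 8.96 against 16.3. Pax6, Sox1 and Neurod1 had 2.83, 6.75 and 3.55 against 0.863, 4.34 and 1.2. These marker sums moved with the day, though single markers of a list differed, and their part in the results that follow was not tested. Depletion of TUNA could not be read from this table, since the row that holds its older symbol, 2810011L19Rik, was at 0 throughout (0 of 12 libraries above 0).

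At day 4 the group with the hairpin against TUNA had less RNA of Cdc6, Mcm3, Mcm4, Rfc1 and Dtl than the control, by 1.63 to 2.12 times, while the other MCM subunits, the firing factors and the genes for nucleotide supply passed no test. Mcm4 and Rfc1 were also lower at day 2 and day 6, and Dtl at day 6. In a bulk library, fewer cells in S phase and less of these RNAs per cell cannot be told apart. A change was called where limma, fitted on log2(value + 1) over the 8739 rows that reached 10 normalized counts in 3 or more libraries, gave a Benjamini-Hochberg adjusted p below 0.05. Of the 47 genes, 46 entered the test: 39 were at 10 or more in all 12 libraries and 7 in only some of them (Gins1, Gins3, Rfc3, Rfc4, Prim1, Pold2 and Tk1). Pole2, a subunit of polymerase epsilon, stood at 0 to 12.9 and was not tested.

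Against the control at day 2, 0 of the 46 were higher and 2 were lower (4.35%), where 0.412% and 0.549% of all tested rows were called higher and lower. An unadjusted p under 0.05 in limma was reached by 6 of the 46 and by 1072 of all 8739 rows, a similar share. At day 4, 0 were higher and 5 lower (10.9% of the 46), against 6.99% and 7.76% of all rows. There 8 of the 46 had an unadjusted p under 0.05, and so did 2614 of the 8739 rows, a larger share. At day 6, 0 were higher and 3 lower (6.52%), against 3.07% and 3.15% of all rows. There 10 of the 46 had an unadjusted p under 0.05, and so did 1702 of the 8739 rows, a similar share. These 3 comparisons share the control libraries. The shares called lower at day 4 and day 6 were of the same order as among all rows, so these counts are a result about a few named genes and not about the list. The median log2 change of the 46 was 0.01 at day 2, -0.15 at day 4 and -0.24 at day 6, where that of all rows was 0.01, -0.01 and -0.01. A negative change was seen for 21 of 46 genes at day 2 (45.7%, all rows 49.1%), 32 at day 4 (69.6%, all rows 50.6%) and 35 at day 6 (76.1%, all rows 51%). Most of these single changes did not pass the test. All 3 libraries lay below every control for 13% of the 46 at day 2, 19.6% at day 4 and 26.1% at day 6. Among all rows these shares were 10.3%, 16.9% and 12.8%. They lay above every control for 6.52%, 4.35% and 2.17% of the 46, against 9.76%, 15.5% and 11.2% of all rows. A lack of overlap in 1 gene, as named below, is thus common in this table. The normalized counts of all 47 genes summed to 4469.4 ± 151.1 in the control (SD, n = 3). With the hairpin against TUNA the sum was 4367.8 ± 133.7 on day 2, 3992.7 ± 256.5 on day 4 and 3806.6 ± 76.9 on day 6. The course depended on the scale: as RPM over the reads outside the 3 dominant rows, the 47 genes stood at 4047, 4029 and 3492 in the controls and 3335 to 3389 on day 2, below every control. On that scale day 4, at 2747 to 3171, was lowest, and day 6 stood at 3236 to 3422. How far all other rows shift between the scales was not worked out, so this course cannot be read as particular to the 47 genes. In the GENCODE M21 annotation, exons of 14 of the 47 genes overlap a gene on the other strand, and Cdc6, Mcm3, Mcm4, Rfc1 and Dtl are not among them.

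**Figure D1:**
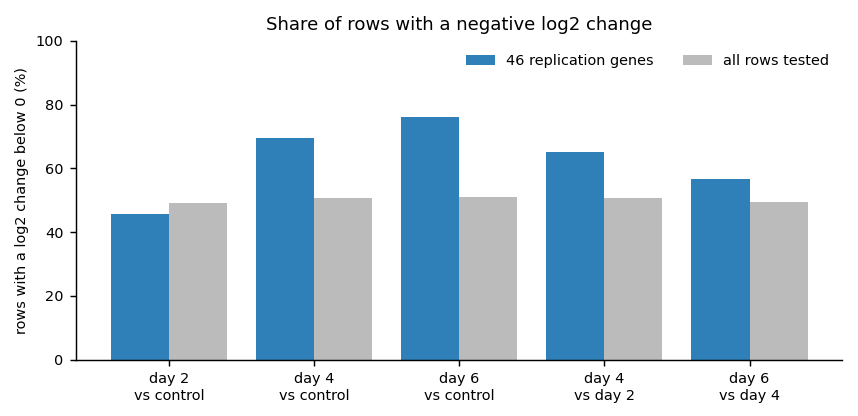
Share of rows with a log2 change below 0 (percent, y axis) in each of the 5 comparisons (x axis), for the 46 replication genes tested (blue) and all 8739 rows tested (grey). The blue bars stand at 45.7% for day 2, 69.6% for day 4 and 76.1% for day 6 against the control, while the grey bars stay between 49.1% and 51%.

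**Figure D2:**
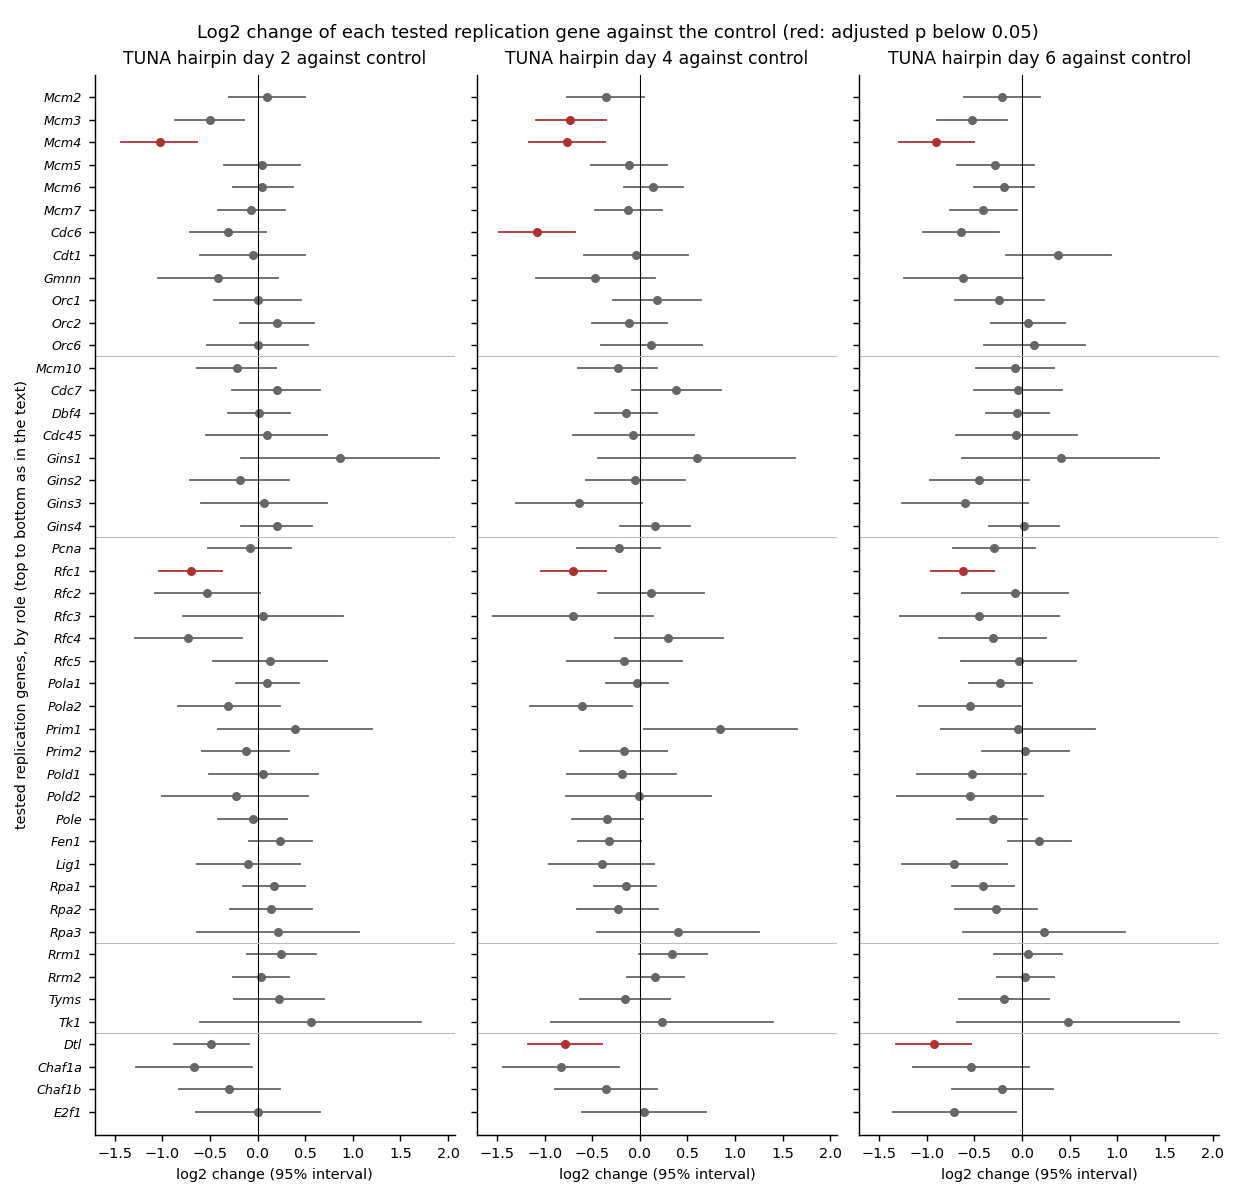
Log2 change against the control (x axis, on the log2(value + 1) scale) of each tested replication gene at days 2, 4 and 6, with bars for the 95% interval, grouped by role. Red marks an adjusted p below 0.05: 2 genes at day 2, 5 at day 4 and 3 at day 6, all to the left of 0.

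Promoter sequence was read for the genes called lower at day 4. Their courses differed: Mcm4 and Rfc1 were called from day 2 on, and Cdc6 also fell from day 2 to day 4. RefSeq (GRCm38.p6) gave windows from 250 bases before to 50 bases after the annotated start for 39 of the 47 genes, 46 windows in all. The windows were searched on both strands for the E2F motifs TTTCCCGC, TTTCGCGC, TTTGCCGC and TTTGGCGC, and for the NF-Y motif CCAAT. None of the E2F motifs contains CCAAT. An E2F motif stood in 14 of 46 windows (30.4%) and in 744 of the 32851 windows of all genes (2.26%). CCAAT stood in 26 of 46 windows (56.5%) and in 12289 of all windows (37.4%). Of the 4 genes lower at day 4 that had a window, Cdc6, Mcm3, Dtl and Rfc1, CCAAT stood in 3 (Mcm3, Dtl and Rfc1). An E2F motif stood in 3 as well (Cdc6, Mcm3 and Dtl). Those 3 are shown 5′ to 3′ from 250 bases before to 30 bases after the start, with the E2F motif in capitals, to show how its place and strand differ between genes that were each called lower at day 4.
Mcm3, chr1:20820283-20820562, minus strand: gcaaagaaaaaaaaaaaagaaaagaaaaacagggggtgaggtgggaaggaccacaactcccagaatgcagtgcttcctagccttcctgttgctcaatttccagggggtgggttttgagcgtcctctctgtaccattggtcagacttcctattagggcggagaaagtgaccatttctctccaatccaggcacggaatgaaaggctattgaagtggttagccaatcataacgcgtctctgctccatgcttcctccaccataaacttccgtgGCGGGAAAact
Dtl, chr1:191575515-191575794, minus strand: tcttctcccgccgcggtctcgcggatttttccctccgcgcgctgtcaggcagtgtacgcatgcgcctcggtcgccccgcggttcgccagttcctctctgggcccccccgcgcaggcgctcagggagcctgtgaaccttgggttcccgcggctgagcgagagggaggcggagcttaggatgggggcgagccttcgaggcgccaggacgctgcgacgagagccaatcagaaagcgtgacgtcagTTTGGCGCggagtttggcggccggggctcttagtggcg
Cdc6, chr11:98907901-98908180, plus strand: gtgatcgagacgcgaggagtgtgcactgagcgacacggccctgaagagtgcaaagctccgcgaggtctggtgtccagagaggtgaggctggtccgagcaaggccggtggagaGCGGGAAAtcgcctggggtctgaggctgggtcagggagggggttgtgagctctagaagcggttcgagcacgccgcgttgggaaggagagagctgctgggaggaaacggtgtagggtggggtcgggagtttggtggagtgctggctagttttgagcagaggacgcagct
Counted from the start, the motif began at 20 in Mcm3 (TTTCCCGC, reverse strand, printed as GCGGGAAA), at -8 in Dtl (TTTGGCGC, forward) and at -138 in Cdc6 (TTTCCCGC, reverse). Mcm3 held a further copy, TTTGGCGC at 39, beyond the stretch shown. The same motifs stood in windows of 11 other genes of the list, among them Mcm5, Mcm6, Mcm7, Cdt1, Orc1 and Pola1. A match is a run of letters and shows no binding.

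Among the licensing genes, 1 of 12 was lower at day 2, 3 at day 4 and 1 at day 6, and none was higher. Mcm4, a subunit of the MCM ring, had 103, 122 and 104 normalized counts in the control, 59.9, 44.3 and 55.9 at day 2, 65.4, 60.1 and 66.5 at day 4, and 50.6, 52.5 and 74.2 at day 6. All 9 libraries with the hairpin against TUNA lay below all 3 controls. Its log2 change was -1.03 ± 0.19 at day 2 (SE, adjusted p 0.0109 by limma with Benjamini-Hochberg), -0.77 ± 0.19 at day 4 (0.0107) and -0.90 ± 0.19 at day 6 (0.00704). The day 2 call was lost without control replicate 2 or without day 2 replicate 2 (adjusted p up to 0.0837), and the day 4 call without control replicate 2 (0.0537). Mcm3, another subunit of the ring, had 180, 151 and 186 in the control, 105, 125 and 134 at day 2, 118, 89.5 and 105 at day 4, and 111, 145 and 105 at day 6. Here too no library with the hairpin reached the lowest control, but only day 4 passed, with -0.73 ± 0.17 (limma adjusted p 0.00917, or 0.0533 without day 4 replicate 2). At day 2 the change was -0.50 (0.227) and at day 6 -0.53 (0.0836).

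Cdc6, the loader that brings the MCM ring to the origin, had 198, 157 and 136 normalized counts in the control, 112, 128 and 152 at day 2, 69.0, 68.0 and 92.4 at day 4, and 118, 87.6 and 106 at day 6. Day 2 overlapped the control, day 4 lay below every control and every day 2 library, and day 6 lay below every control. The log2 change was -0.31 at day 2 (limma adjusted p 0.544), -1.08 ± 0.19 at day 4 (0.00102) and -0.64 ± 0.19 at day 6 (0.0536, which did not pass). The day 4 call held with each of the 6 libraries left out in turn (highest adjusted p 0.0082).

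**Figure D3:**
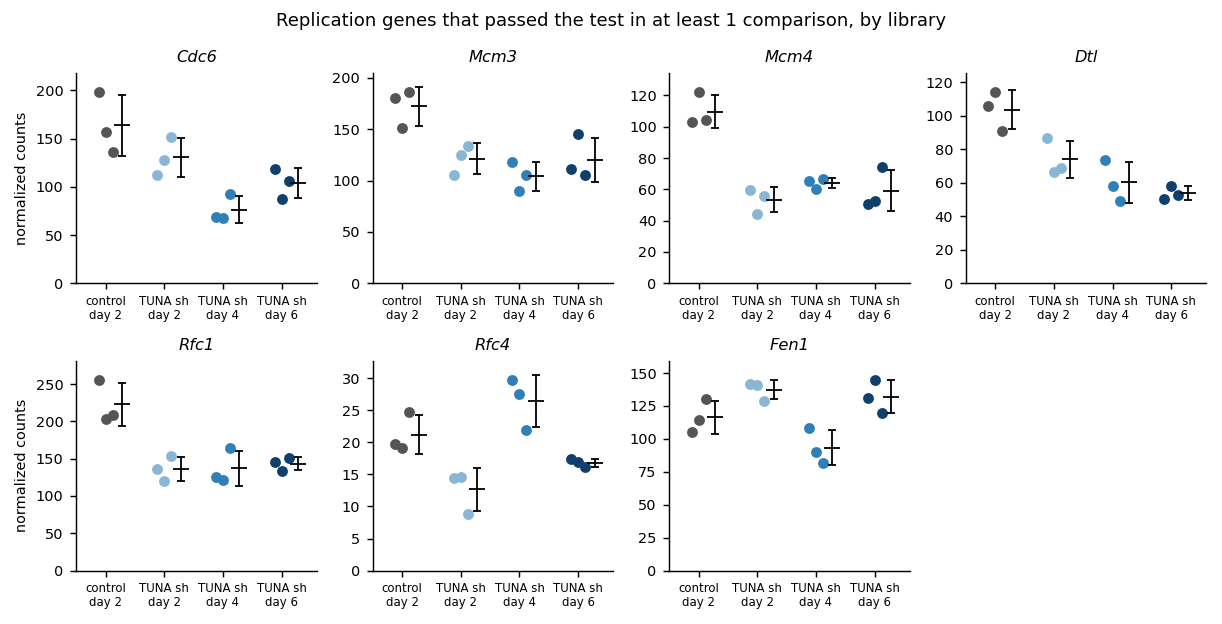
Normalized counts (y axis, from 0) of the 7 replication genes called in any comparison, by group (x axis). Each point is 1 library and the bar is the mean ± SD of 3 libraries, and for Mcm4 all 9 libraries with the hairpin against TUNA (44.3 to 74.2) sit below the controls (103 to 122).

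None of the other 4 subunits of the ring was called on any day. Mcm2 had 197, 212 and 228 in the control and 257, 206 and 222 at day 2, so the groups overlapped. It had 223, 165 and 122 at day 4 and 192, 207 and 154 at day 6, a wide spread. Its change at day 2 was 0.10 with a 95% interval of -0.30 to 0.50, and the interval at day 4 was -0.76 to 0.04. Without day 4 replicate 1 it was called lower at day 4 (-0.58, limma adjusted p 0.0489). Mcm6 had 177, 169 and 209 in the control, 208, 188 and 178 at day 2, 233, 191 and 188 at day 4, and 155, 181 and 151 at day 6, and overlapped the control on each day. For Mcm6 the 95% interval at day 4 was -0.17 to 0.45, which leaves out a fall of the size of Mcm4. For Mcm5 the log2 values against the control were 0.05, -0.11 and -0.28 at days 2, 4 and 6, and for Mcm7 they were -0.07, -0.12 and -0.41, with no call (lowest limma adjusted p 0.185, for Mcm7 at day 6, where the groups did not overlap). The counts of Mcm7 may include reads of the microRNAs Mir25, Mir93 and Mir106b, which lie inside the gene. Small RNA genes also lie inside Orc2, Pola1, Pold1, Pole and Rpa1, whose counts may include such reads too.

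**Figure D4:**
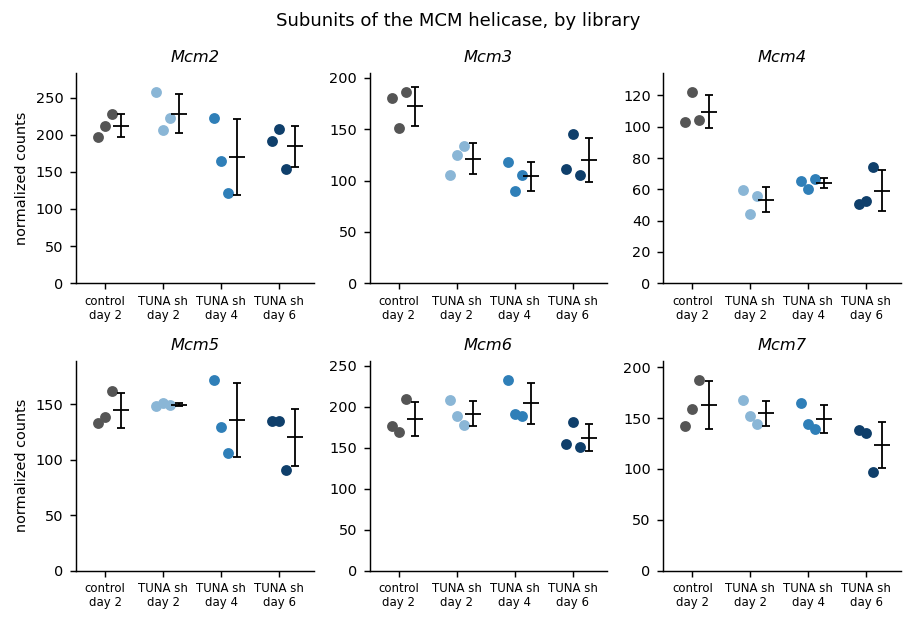
Normalized counts (y axis, from 0) of the 6 MCM ring subunits by group (x axis), each point 1 library and each bar the mean ± SD of 3 libraries. Mcm3 and Mcm4 sit below the controls in all 9 libraries with the hairpin, while Mcm2, Mcm5 and Mcm6 overlap the controls on each day.

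The subunit proteins join in equal numbers in the ring. The RNA level of Mcm4 was set against the mean of Mcm2, Mcm5, Mcm6 and Mcm7 in the same library. This ratio was chosen after the values were seen and is given without a test. That mean holds the subunits not called and leaves out Mcm3, so a lower ratio largely restates the calls and adds no support to them. The levels are not corrected for transcript length, so only the difference between groups can be read. The ratio was 0.632, 0.723 and 0.530 in the control, 0.307, 0.254 and 0.323 at day 2, 0.330, 0.382 and 0.479 at day 4, and 0.326, 0.319 and 0.601 at day 6. Day 2 and day 4 lay below every control, and day 6 did so except for replicate 3. For Mcm3 the same ratio was 0.982 ± 0.115 in the control (SD, n = 3), 0.677 ± 0.125 on day 2, 0.640 ± 0.103 on day 4 and 0.815 ± 0.0894 on day 6.

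The origin recognition genes Orc1, Orc2 and Orc6, the loader Cdt1 and its inhibitor Gmnn (geminin) passed no test. Orc2 stood above every control at day 2, with 174, 165 and 177 against 150, 144 and 156, a log2 difference of 0.20 (limma adjusted p 0.725). Cdt1 at day 6, with 29.4, 35.5 and 31.2 against 26.6, 19.1 and 28.3, was the one licensing gene above all controls on that day (0.38, adjusted p 0.474). Of all tested rows, 11.2% lay above all controls at day 6. The ratio of Cdc6 to Cdt1, which act at the same loading step, was 6.82 ± 1.8 in the control (SD, n = 3), 5.77 ± 2.14 on day 2, 3.46 ± 1.66 on day 4 and 3.3 ± 0.786 on day 6. It too was chosen after the values were seen, and it sets a called gene against one not called. Gmnn had 20.5 ± 3.79 in the control, 15.1 ± 2.68 on day 2, 14.7 ± 3.77 on day 4 and 13.0 ± 2.59 on day 6, and its day 6 libraries all lay below the controls (-0.62, adjusted p 0.265).

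None of the 8 firing genes was called on any day (median log2 change 0.09, -0.06 and -0.05 at days 2, 4 and 6). Dbf4, the activator of CDC7, had 175, 154 and 180 in the control, 152, 179 and 182 at day 2, 160, 138 and 161 at day 4, and 164, 192 and 138 at day 6. The groups overlapped throughout, and the 95% intervals were -0.31 to 0.34, -0.47 to 0.18 and -0.38 to 0.28, which exclude a fall by 2 times. Mcm10, which helps start the unwinding of licensed origins, had 83.0, 80.6 and 61.5 in the control, 52.2, 73.1 and 67.4 at day 2, 65.6, 63.0 and 60.9 at day 4, and 90.5, 62.7 and 62.6 at day 6, and the groups overlapped. Cdc7, the kinase itself, had log2 differences of 0.20, 0.38 and -0.04, and Cdc45, part of the active helicase, 0.10, -0.07 and -0.06, without a call. Of the GINS subunits, Gins3 had 27.5, 34.9 and 29.7 in the control and 26.1, 27.4 and 9.78 at day 4, all below the controls, with -0.64 (limma adjusted p 0.179). Gins1 stood at 4.82 to 19.2 and its interval at day 2, -0.17 to 1.90, was wide, so that little can be read from it at this depth.

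Of the 18 tested genes for polymerases, clamp and fork proteins, 1 was lower on each day and none was higher against the control. That gene was Rfc1, the large subunit of replication factor C, which loads the PCNA clamp. It had 256, 203 and 209 normalized counts in the control, 136, 120 and 153 at day 2, 126, 121 and 164 at day 4, and 145, 134 and 151 at day 6. All 9 libraries with the hairpin lay below all controls. The change was -0.70 ± 0.16 at day 2 (limma adjusted p 0.0434), -0.70 ± 0.16 at day 4 (0.00715) and -0.62 ± 0.16 at day 6 (0.0257). The day 2 call was lost without any 1 of its 6 libraries (adjusted p up to 0.198) and the day 6 call when control replicate 1, control replicate 3, day 6 replicate 1 or day 6 replicate 2 was left out (up to 0.13), while the day 4 call held with each library left out (up to 0.0428).

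None of the small subunits of the clamp loader, Rfc2 to Rfc5, was called against the control. Rfc5 ranged from 181 to 432 and its replicates were far apart, with 381, 298 and 209 in the control, 293, 311 and 343 at day 2, 181, 215 and 432 at day 4, and 284, 197 and 395 at day 6. Its groups overlapped throughout, and its 95% interval at day 4 was -0.77 to 0.44. Its highest value in the control, day 4 and day 6 lay in libraries that shared deviations over all tested rows, as given below. Rfc4, called between day 2 and day 4, is described with that comparison. Rfc1 over the mean of Rfc2 to Rfc5 in the same library, a ratio chosen after the values were seen, was 2.49 ± 0.366 in the control (SD, n = 3), 1.48 ± 0.116 on day 2, 1.66 ± 0.342 on day 4 and 1.69 ± 0.339 on day 6. Rfc5, with a control mean of 296, outweighs Rfc2, Rfc3 and Rfc4 there, at 30.8, 16.4 and 21.2. The ratio thus mostly sets Rfc1 against Rfc5, again a called gene against one not called.

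Rpa1, the large subunit of the protein that covers single-stranded DNA, had 400, 345 and 310 in the control, 384, 399 and 400 at day 2, 294, 267 and 398 at day 4, and 262, 254 and 271 at day 6. Day 6 lay below every control, with a log2 difference of -0.41 ± 0.15 that did not pass (limma adjusted p 0.133). Pcna, the clamp, had 175, 154 and 201 in the control, 163, 160 and 175 at day 2, 186, 149 and 122 at day 4, and 147, 194 and 102 at day 6, and all groups overlapped. Its 95% interval at day 4 was -0.66 to 0.21, and processed copies of Pcna elsewhere in the genome could share its reads. Pola1, the catalytic subunit of polymerase alpha, had 254 ± 33.7 in the control and 249 ± 32.8 at day 4 (-0.03, interval -0.36 to 0.30). A negative log2 value was seen for 14 of the 18 at day 4 and 15 of the 18 at day 6, and apart from Rfc1 none passed. Among those values were Pola2, its accessory subunit, at day 4 (-0.61, adjusted p 0.115), Lig1, the ligase that joins Okazaki fragments, at day 6 (-0.71, adjusted p 0.125), Rfc3, a small subunit of the clamp loader, at day 4 (-0.70, adjusted p 0.253), and Pole, catalytic in polymerase epsilon, at day 4 (-0.34, adjusted p 0.201, all 3 libraries below the controls). Prim1, the catalytic subunit of primase, stood higher at day 4, with 24.3, 24.7 and 28.8 against 7.13, 14.8 and 25.1 (0.84, adjusted p 0.149), and was called higher without control replicate 3 (1.24, adjusted p 0.0472). Rpa3, the small subunit of the same protein as Rpa1, had 42.0, 90.3 and 171 at day 4, and its 95% interval there was -0.45 to 1.25.

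The 4 genes for nucleotide supply were not called on any day, and their median log2 change was 0.24, 0.20 and 0.05. Rrm1, the large subunit of ribonucleotide reductase, had 174, 164 and 187 in the control, 216, 189 and 220 at day 2, 230, 208 and 229 at day 4, and 224, 203 and 135 at day 6. Days 2 and 4 lay above every control, with 0.25 (limma adjusted p 0.601) and 0.34 (0.187), and neither passed. Rrm2, the small subunit, had 118, 124 and 130 in the control, 119, 125 and 138 at day 2, 150, 132 and 134 at day 4, and 123, 125 and 132 at day 6. Its 95% interval was -0.26 to 0.33 on day 2 and again on day 6, and -0.13 to 0.46 on day 4, which exclude a fall of the size seen for Mcm4. Tyms, thymidylate synthase, had 72.9, 102 and 166 at day 4 against 120 ± 15.9 in the control and was not called. A copy in the annotation, Tyms-ps, could share its reads. Tk1, thymidine kinase, rested on only 3.0 to 18.0 reads per library, and nothing can be read from it at this depth.

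In the group for control and chromatin assembly, 0 of 4 genes were called at day 2, 1 was lower at day 4 and 1 at day 6, the same gene. Dtl, the substrate receptor of the ubiquitin ligase that removes CDT1 during S phase, had 106, 114 and 91.0 normalized counts in the control, 86.7, 66.5 and 68.7 at day 2, 73.3, 57.9 and 49.3 at day 4, and 50.2, 58.3 and 52.9 at day 6. All 9 libraries with the hairpin lay below the controls. The change was -0.49 ± 0.19 at day 2 (limma adjusted p 0.284), -0.79 ± 0.19 at day 4 (0.00866) and -0.93 ± 0.19 at day 6 (0.00508), and both calls held with each library left out (up to 0.0426 and 0.0327). Chaf1a, the large subunit of the CAF-1 histone chaperone, had 35.3, 44.0 and 34.2 in the control, 25.8, 22.7 and 21.4 at day 2, 14.3, 22.1 and 28.1 at day 4, and 29.2, 16.4 and 34.4 at day 6. Days 2 and 4 lay below every control, but with -0.67 (adjusted p 0.357) and -0.83 (0.0634) neither passed, and day 4 was called only without day 4 replicate 3 (-1.04, adjusted p 0.0303). Chaf1b, the middle subunit of CAF-1, had 36.8, 39.0 and 59.3 in the control, 40.1, 42.0 and 26.7 at day 2, 36.2, 30.2 and 36.3 at day 4, and 44.8, 44.1 and 27.6 at day 6, without a call. E2f1, a transcription factor for many of these genes, had 25.3 ± 4.66 in the control (SD, n = 3), 25.4 ± 4.94 on day 2, 26.7 ± 9.16 on day 4 and 15.7 ± 6.72 on day 6, with -0.71 at day 6 (adjusted p 0.21).

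Day 4 was also compared with day 2, both with the hairpin against TUNA. Of the 46 genes 1 was higher and 2 were lower, where 3.27% and 4.38% of all rows were called higher and lower. Cdc6 fell by 0.77 ± 0.19 on the log2 scale between those days (limma adjusted p 0.0188), a call lost without day 2 replicate 2 or 3 or without day 4 replicate 1 or 2 (up to 0.102). Fen1, the nuclease that trims Okazaki fragments, had 142, 141 and 129 at day 2 and 108, 89.7 and 81.9 at day 4, with no overlap. It fell by 0.57 ± 0.16 (adjusted p 0.0351), and the call was lost without any 1 of 5 of the 6 libraries, day 4 replicate 1 being the exception (up to 0.11). Against its control, at 105, 114 and 130, Fen1 was called on no day. Rfc4, a small subunit of the clamp loader, had 14.5, 14.6 and 8.85 at day 2 and 29.8, 27.6 and 22.0 at day 4, again with no overlap, and rose by 1.03 ± 0.27 (adjusted p 0.0249). That call was lost without day 2 replicate 3 or without day 4 replicate 1 or 2 (up to 0.118), and the control, at 19.8, 19.1 and 24.7, lay above every day 2 library and overlapped day 4. At day 6 Rfc4 had 17.4, 16.9 and 16.1, below every control and every day 4 library, and neither difference passed (-0.31, adjusted p 0.582, and -0.61, adjusted p 0.196). Exons of Fen1 and Rfc4 overlap genes on the other strand in the GENCODE M21 annotation, Gm10143 and Tmem258 for Fen1 and Eif4a2 for Rfc4, and whether reads were counted by strand was not given in the sources used here.

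From day 4 to day 6, 0 of the 46 were called higher and 0 lower by limma, where 2.64% and 2.94% of all rows were called. An unadjusted p under 0.05 was seen for 6 of the 46 and for 1811 of the 8739 rows, a larger share. The smallest adjusted p, 0.0666, was that of Fen1, which had 131, 145 and 120 at day 6, above all day 4 libraries (0.50 ± 0.16), and which was called without day 4 replicate 1 (0.62, adjusted p 0.0449). Cdc6 stood higher at day 6 than at day 4 by 0.44 ± 0.19 (adjusted p 0.187), with an overlap between 87.6 and 92.4. Prim1, with 22.2, 12.4 and 8.96 at day 6, lay below all its day 4 values (-0.88, adjusted p 0.194). Of all tested rows, 11.5% lay above and 11.8% below all their day 4 values.

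A wider list of 74 genes that work beside these 47 was read the same way, and 67 were tested. Against the control, 0 were higher and 1 lower at day 2, 5 higher and 8 lower at day 4, and 2 higher and 2 lower at day 6. At day 4 that was 7.46% and 11.9% of the 67, beside 6.99% and 7.76% of all rows, and at day 6 it was 2.99% each way, beside 3.07% and 3.15%. These shares lie near those of all rows, so the results are about the genes named. From day 2 to day 4, 0 rose and 2 fell, and from day 4 to day 6, 1 rose and 1 fell. Their median log2 change was 0.02, -0.12 and 0.00 at days 2, 4 and 6 against the control. Timeless, a fork protection protein, had 39.8, 49.4 and 47.3 in the control, 35.8, 38.0 and 25.2 at day 2, 15.4, 14.2 and 14.6 at day 4, and 23.1, 15.6 and 18.2 at day 6. Its groups did not overlap the control on any day, and it was lower at day 4 (-1.56 ± 0.24, limma adjusted p 0.000374) and day 6 (-1.23 ± 0.24, adjusted p 0.00423). Between day 2 and day 4 it fell by 1.09 (adjusted p 0.00963, or 0.0528 without day 2 replicate 2). Uhrf1, which brings DNA methylation to newly copied DNA, had 182 ± 20.2 in the control (SD, n = 3), 137 ± 19.9 on day 2, 95.2 ± 12.2 on day 4 and 92.2 ± 11.2 on day 6. It was lower at day 4 (-0.93) and at day 6 (-0.98), with adjusted p of 0.00123 and 0.00181.

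Ccna2, cyclin A2 of S phase, was the one wider gene called at day 2, with 83.1, 87.1 and 80.0 against 148, 145 and 187 in the control (-0.92 ± 0.17, limma adjusted p 0.0123). That call was lost without control replicate 3 or any day 2 library (up to 0.066). At day 4 Ccna2 was lower as well (-0.68, adjusted p 0.0121, up to 0.0655 without control replicate 3 or day 4 replicate 2). Ccnd1, cyclin D1 of G1, was called against the control at day 4 and on no other day, with 49.4, 34.2 and 40.3 against 70.8, 80.2 and 91.7 in the control (-0.96 ± 0.18, adjusted p 0.00205), and rose again by 1.13 ± 0.18 to 93.3, 102 and 78.6 at day 6 (adjusted p 0.00116). Rb1, the inhibitor of E2F factors, went up from 14.2, 5.56 and 6.88 in the control to 28.5, 44.6 and 29.2 at day 4 (1.90 ± 0.34, adjusted p 0.00118) and 19.8, 31.4 and 26.7 at day 6 (1.52 ± 0.34, adjusted p 0.0105, up to 0.0571 without control replicate 2 or day 6 replicate 2). Cul4b, a scaffold of ubiquitin ligases of the kind that use DTL, had 190 ± 18.6 in the control, 267 ± 20.5 at day 4 (0.49, adjusted p 0.0339, up to 0.118 without control replicate 1, control replicate 2, day 4 replicate 1 or day 4 replicate 2) and 309 ± 42.3 at day 6 (0.69, adjusted p 0.00863).

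At day 4 the origin recognition gene Orc3 (0.60) and the topoisomerase genes Top1 (0.73) and Top2a (0.47) were higher. Ticrr, which helps CDC45 join the ring (-1.13), Chtf18, part of an alternative clamp loader (-1.69), Shmt1, of folate metabolism (-0.58), and Slbp, which binds histone messenger RNA (-0.45), were lower. Each of these 7 calls was lost without at least 1 library: Slbp without any of its 6 and Top2a without any of 5, all but control replicate 1. Chtf18 was lost only without control replicate 3, Top1 only without control replicate 2 or day 4 replicate 2, Orc3 without control replicate 1 or 3 or day 4 replicate 3, and Ticrr without control replicate 2 or day 4 replicate 2 or 3. Chtf18 was low, with 13.6, 13.1 and 23.6 in the control and 3.88, 7.2 and 2.74 at day 4. It rested on 2.24 to 21.4 reads per library and did not enter the test with the filter at 20. Shmt1 was lost when control replicate 2, control replicate 3, day 4 replicate 1 or day 4 replicate 2 was left out (limma adjusted p up to 0.156 over these 7 calls). Other settings of the fit also ended the calls of Orc3, Ticrr, Top2a, Shmt1 and Slbp, and those of Cul4b at day 4 and Ccna2 at day 2. Atr, the checkpoint kinase, fell by 0.87 from day 4 to day 6 (adjusted p 0.0122), from 443, 558 and 744 to 315, 237 and 398, and the call was lost without day 6 replicate 2 (0.0546), without the intensity trend (0.0601) and with only the groups compared (0.0738).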

How the data were processed

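The authors deposited 1 table of log2 normalized counts for 12 libraries. The submitters' processing notes name BWA, DESeq and the mouse build mm9, and what each was used for was not given there. In the deposited log2 values 0 is the floor and covers 1 normalized count and under. The log was undone here, and a value at the floor was taken as 0. The step between low values gave the worth of 1 read. The values are weighted: within 0.02 of a read, 20 members were whole in no library and 0 in all 12, so a count test was not used. Main results come from limma 3.58.1 in R 4.3.3, on log2(value + 1) with 1 mean per group over 12 libraries, an intensity trend, 8 residual and 9.48 prior degrees of freedom, for rows at 10 or more in at least 3 libraries, adjusted by Benjamini-Hochberg within each of 5 comparisons over all 8739 rows. Fold changes on this scale understate the change of low genes. Members, wider list, motifs and rules were chosen with earlier results of these data known. Full values are given for members called in any comparison and for the 2 members of each role with the highest mean, and of the wider list the called genes are named. Other members named were chosen after their values were seen. Alternatives were 2 other scalings, 2 filters, a pseudocount of 5, no trend, only the groups compared, a replicate block and each library left out, and for the wider list these were added after seeing the data. Names and overlaps came from GENCODE M21 (47 of 47 matched), and 14 members overlap exons on the other strand. Coordinates are given only for RefSeq windows (GRCm38.p6). Figures used matplotlib 3.10.9 in Python 3.11.15.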

Additional observations from a re-analysis of the deposited data

Results flagged for a closer look

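Differences between day 4 and day 2 passed the limma test for 3 replication genes: Cdc6 with a log2 difference of -0.77 (adjusted p 0.0188), Fen1 with -0.57 (0.0351) and Rfc4 with 1.03 (0.0249). Both days were set against the same day 2 control, so the hairpin and time in culture cannot be told apart in these differences. Cdc6 went from -0.31 at day 2 to -1.08 at day 4 against the control, Fen1 from 0.24 to -0.32, and Rfc4 from -0.73 to 0.30. All 3 calls were lost with some library left out. No cause was tested.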

How the results depend on the processing

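Of the 13 called changes among the replication genes, 5 held under all 14 alternatives run for each: Cdc6, Rfc1 and Dtl at day 4, and Mcm4 and Dtl at day 6. The 2 other scalings were computed from the authors' normalized counts, with factors of 0.994 to 1.003 and 0.97 to 1.023. Since they start from values already scaled, factors near 1 were likely and are no independent check of that scaling. The scale of reads outside the 3 dominant rows was not put through the fit, so the calls were not tested on it. No called change reversed its sign. The count of members lower at day 2 (2) became 1 without the filter, 1 without the intensity trend and 0 to 1 with a library left out. The count higher at day 4 against the control (0) was 0 to 1 with a library left out, and the count lower (5) was 4 to 6. The count lower at day 6 (3) was 2 to 3 with a library left out, 2 without the trend and 4 with a pseudocount of 5. From day 2 to day 4, the count higher (1) became 0 without the filter, 0 with only the groups compared and 0 to 1 with a library left out, and the count lower (2) became 0 without the trend, 1 with the replicate block and 0 to 3 with a library left out. From day 4 to day 6, the count higher (0) was 0 to 1 with a library left out. Cdc6 at day 6 passed with a pseudocount of 5 (adjusted p 0.0493) or without control replicate 3 (0.0481), and Mcm3 at day 6 without day 6 replicate 2 (0.0426). From day 2 to day 4, Mcm2 was called lower without day 4 replicate 1, and Rpa1 and Tyms without day 4 replicate 3. The causes were not tested. Over the alternatives the median change of the members against the control was between -0.02 and 0.05 at day 2, between -0.17 and -0.09 at day 4, and between -0.31 and -0.19 at day 6. Over all rows at day 2, 36 higher and 48 lower became 25 and 27 without the filter, 18 and 19 without the trend, 52 and 73 with only the groups compared, and 9 to 24 and 9 to 21 with a library left out (lowest without day 2 replicate 2). With a library left out, all rows called against the control were 362 to 572 higher and 447 to 715 lower at day 4, and 125 to 237 and 157 to 319 at day 6. They were 141 to 269 and 188 to 470 from day 2 to day 4. From day 4 to day 6 they were 99 to 224 and 120 to 248, or 97 and 112 with only the groups compared. In the wider list 9 of 22 calls held under all alternatives. Replicate numbers did not pair the samples: deviations correlated at -0.277 to 0.328 for the same number and -0.331 to 0.315 for different numbers. Control replicate 1, day 4 replicate 3 and day 6 replicate 3 shared deviations, at 0.236 to 0.328. So did control replicate 3, day 4 replicate 1 and day 6 replicate 2, at 0.212 to 0.315. Pairs across these sets stood at -0.331 to -0.215. Rfc5, for example, stood at 381, 432 and 395 in the first set and at 209, 181 and 197 in the second. What the libraries of a set shared was not tested or put in the fit. The replicate block ended 1 member's call, Fen1 from day 2 to day 4, and 2 calls of the wider list, Top2a and Slbp at day 4. With 3 libraries per group and under 20 reads for the lowest genes, small changes were not detectable.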
